A study of Mus musculus with 19 samples.

Results

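The 10 genes described here encode the core of the machinery that silences chromatin in mouse cells. They are the DNA methyltransferases Dnmt1, Dnmt3a and Dnmt3b, the Dnmt1 partner Uhrf1, the co-repressor Trim28, the histone H3 lysine 9 methyltransferases Setdb1 and Suv39h1, the histone deacetylase Hdac1, the nucleosome remodeller Smarca5 and the chromosomal ATPase Smchd1. They were found by gene symbol among the 41388 Ensembl gene identifiers of each count file; all 10 were present, and all 10 passed the filter on low counts, against 17956 identifiers in the fit of all libraries. The match by symbol used no measured value, though the genes were chosen with earlier results of these data known. The question was whether the transcripts of other silencing factors change when the dose of Wiz, a zinc-finger protein that binds the G9a/GLP histone methyltransferase complex, is reduced.

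Wildtype mice (Wiz +/+, here WT) were compared with heterozygotes (Wiz MommeD30/+, here Het). MommeD30 is a frameshift null allele that arose in a chemical mutagenesis screen, and homozygotes die in utero. Every animal was on the inbred FVB/NJ background and homozygous for a multicopy GFP transgene, so WT animals carried it too. Polyadenylated RNA was sequenced from whole brain at 13.5 days post coitum, from 3 WT and 3 Het males and 2 WT and 2 Het females, and from cerebellum at 56 days post partum, from 3 WT and 3 Het males. Brain and cerebellum differ in age as well as in tissue, and these cannot be told apart. The 3 chromatin immunoprecipitation libraries of the series were not analysed here.

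DNA methylation is laid down on unmethylated sites by Dnmt3a and Dnmt3b and copied to the new strand at replication by Dnmt1, which Uhrf1 guides to hemimethylated sites. Trim28 is brought to DNA by KRAB zinc-finger proteins and recruits Setdb1, which methylates H3 lysine 9, while Suv39h1 does the same at pericentric heterochromatin. Hdac1 removes acetyl groups from histones, Smarca5 is the motor of the ISWI remodelling complexes, and Smchd1 is needed for silencing on the inactive X chromosome and at some imprinted clusters. Alleles of Smchd1 (MommeD1), Dnmt1 (MommeD2), Smarca5 (MommeD4), Hdac1 (MommeD5) and Trim28 (MommeD9) share the series name of the Wiz allele, according to RefSeq.

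Library totals ran from 16386029 counts, in WT male brain replicate 2, to 50459755. Levels are given as CPM, counts scaled to a common library total, after TMM scaling over all 16 libraries. The labelled tissues showed in their markers, since the 8 cerebellar neuron markers summed to 139.7 to 150 CPM in brain and 5703 to 5860 in cerebellum. Replicate libraries differed beyond counting noise in every group, most in the female brain groups (chi-square per degree of freedom 10.3 and 11.2, against 2.11 to 5.05 in the others). Nothing in the labels links replicate numbers across groups.

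Wiz itself was lower in every Het library than in every WT library of the same tissue and sex. In male brain Wiz read 172.6, 189.9 and 177.9 CPM in WT and 111.7, 119.0 and 116.4 in Het. In female brain it read 175.8 and 183.9 against 121.7 and 120.0, and in cerebellum 105.3, 104.9 and 104.4 against 73.9, 73.1 and 74.7. Het libraries thus held 62.0% to 71.2% of the WT mean. The log2 fold change in males was -0.63 ± 0.04 (SE) at the embryonic stage (adjusted p = 1.3e-05) and -0.50 ± 0.03 in cerebellum (adjusted p = 9.9e-08), and in female embryos it was -0.57 ± 0.05 (adjusted p = 0.014). Wiz was called in both sexes of brain but not in cerebellum, where its 0.706-fold level was just short of the 0.7-fold limit. In the female brain fit the adjusted p rose to 0.424 without Het replicate 1 and to 0.313 without Het replicate 2.

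The silencing genes were more abundant in embryonic brain than in adult cerebellum. All 10 were higher in each WT male brain library than in each WT cerebellum library, as were 44.1% of the 16840 genes tested. Of the 10, 9 were called higher (an adjusted p no greater than 0.05 and a fold over 1.3), beside 36.7% of all genes. The median log2 fold change of the 10 was 1.1, beside 0.015 over all genes. Scaling by total counts moved the median of all genes to 0.226 and the count of called genes among the 10 to 10. In bulk tissue, fewer cells of a type and less RNA per cell cannot be told apart.

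**Figure D1:**
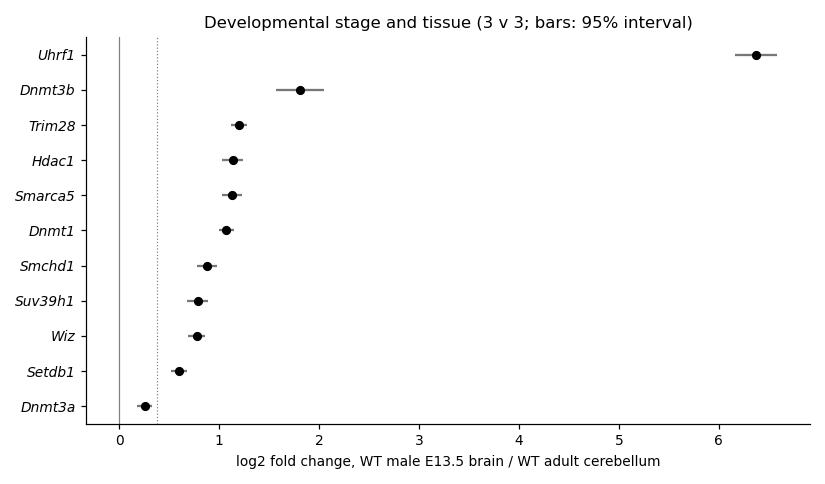
Log2 fold change of the 10 silencing genes and Wiz between WT male brain at 13.5 days post coitum and WT adult cerebellum, 3 libraries each, with 95% intervals; the dotted line is the 1.3-fold limit. Uhrf1 stood at 6.37 and Dnmt3b at 1.81, the others except Dnmt3a lay between 0.60 and 1.20, and the interval of Dnmt3a lay below the limit.

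Uhrf1 differed most between the tissues. It read 95.2, 111.4 and 109.0 CPM in WT male brain and 1.05, 1.45 and 1.29 CPM in WT cerebellum, where these values rest on 29, 39 and 36 counts. The log2 fold change was 6.37 ± 0.10 (adjusted p = 4.18e-17), an 82.9-fold difference. All 15 proliferation markers were called higher in the same comparison, at a median of 6.38 on the log2 scale, and their summed level was 1648 to 1866 CPM in WT male brain and 110 to 118 CPM in WT cerebellum. Over all 16 libraries the genes closest to Uhrf1 in centred log2 CPM, of 14782 genes compared, were Rrm2, a ribonucleotide reductase subunit, and Kif23, a kinesin of cell division (Pearson's r = 0.999 for both). Rrm2 is also one of the 15 proliferation markers. Most of the variation in these libraries lies between the tissues, so such an r mainly records the tissue difference.

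Dnmt1, the partner of Uhrf1 in copying methylation, did not share that contrast. It read 253.6, 266.1 and 260.3 CPM in WT male brain and 120.7, 125.7 and 123.8 in WT cerebellum, a log2 fold change of 1.07 ± 0.04 (adjusted p = 3.56e-13). The WT groups were far apart for both genes, but only Uhrf1 was near the edge of detection in cerebellum. Per kilobase of the longest annotated transcript, WT cerebellum held a median of 21.1 CPM of Dnmt1 and 0.359 of Uhrf1, against 43.2 and 26.6 in WT brain of both sexes.

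The de novo enzymes differed from each other. Dnmt3b read 8.94, 9.15 and 10.1 CPM in WT male brain and 3.07, 2.56 and 2.43 in WT cerebellum, a log2 fold change of 1.81 ± 0.11 (adjusted p = 6.05e-10). Dnmt3a read 270.7, 269.6 and 272.7 CPM in WT male brain and 222.0, 229.0 and 229.9 in WT cerebellum. These Dnmt3a values did not overlap, but the log2 fold change of 0.25 ± 0.04 (adjusted p = 8.74e-06) was under the 1.3-fold limit. Dnmt3a was thus the least different of the 10, and it passed the limit with total-count scaling (0.47).

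Trim28 was the most abundant of the 10 per kilobase in both tissues, with a WT median of 148 CPM per kilobase in brain and 64.3 in cerebellum. It read 463.7, 499.0 and 481.2 CPM in WT male brain and 212.6, 208.7 and 205.3 in WT cerebellum (log2 fold change 1.20 ± 0.04). Its partner Setdb1 differed less, at 149.4, 145.5 and 147.2 against 96.9, 99.7 and 96.0 CPM (0.60 ± 0.04). Suv39h1, which is X-linked, read 47.8, 52.6 and 48.6 against 29.0, 28.9 and 28.1 CPM (0.78 ± 0.05). The adjusted p was 9.88e-14 for Trim28, 6.95e-10 for Setdb1 and 5.07e-10 for Suv39h1, and no WT libraries overlapped between the tissues.

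The remaining members lay close to Dnmt1. Hdac1 read 69.3, 75.5 and 75.8 CPM in WT male brain and 32.1, 33.3 and 34.5 in WT cerebellum, a log2 fold change of 1.14 ± 0.05. Smarca5 read 207.0, 209.6 and 231.3 against 95.7, 98.1 and 102.3 CPM (1.13 ± 0.05), and Smchd1 140.1, 133.9 and 147.1 against 74.5, 80.3 and 74.5 CPM (0.88 ± 0.05). None of these groups overlapped. Wiz differed by 0.78 ± 0.04, within the range of these genes.

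By the same measure of likeness over 16 libraries, the nearest genes to Dnmt3b were Itga1 and Ripor2 (r = 0.994 and 0.993), and those to Dnmt3a were Tnpo2 and Reep3 (r = 0.947 and 0.939). Dnmt1 lay nearest to Hnrnph1 and Ncbp1, Trim28 to Ilf2 and H2afy, Setdb1 to Tlk1 and Pafah1b2, Hdac1 to Rnps1 and Zfp553, Smarca5 to Rdx and Kpnb1, Suv39h1 to Tfdp1 and Hnrnpc, and Smchd1 to Cdc27 and Eif3a, with r of 0.993 to 0.999. None of the 10 genes was among the 2 nearest to another of them.

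Ordered by CPM per kilobase of the longest transcript, WT brain ran Trim28, Dnmt1, Hdac1, Smarca5, Dnmt3a, Uhrf1, Setdb1, Smchd1, Suv39h1 and Dnmt3b. The library ranges of Hdac1 and Smarca5 overlapped, and that of Uhrf1 overlapped those of Smarca5, Dnmt3a and Setdb1. WT cerebellum ran Trim28, Dnmt3a, Dnmt1, Setdb1, Hdac1, Smarca5, Smchd1, Suv39h1, Dnmt3b and Uhrf1, with overlap between Hdac1 and Smarca5 only. The middle of both orders changed when the summed exon length was used instead, while Trim28 stayed first and Dnmt3b in brain and Uhrf1 in cerebellum stayed last.

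Next came 7 wider lists of genes tied to silencing, which also hold erasers such as the H3 lysine 9 demethylases and Tet1. In each list more were called higher than lower in brain, beside 36.7% of all genes called higher and 32.8% called lower. Of 16 further DNA methylation genes, 15 were tested and 9 were called higher and 2 lower in brain. The largest differences were in Cdca7, a cofactor of the remodeller Hells, and its relative Cdca7l (log2 fold change 6.56 and 4.05), while the methyl-CpG binding genes Zbtb38 and Mbd2 were lower (-0.79 and -0.63). Of 16 other H3 lysine 9 methylation and HP1 genes 13 were called higher and none lower, led by Suv39h2 and Cbx5 (1.98 and 1.5). Among them were the Wiz partners Ehmt1 (1.41) and Ehmt2 (0.78), which encode GLP and G9a.

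Rcor2, a CoREST subunit (5.34), and Hdac2 (1.92) led the 10 of 18 deacetylase complex genes called higher, with Mta3 (-0.82) the 1 called lower. Baz1a (4.28) and the other ISWI motor Smarca1 (1.93) led the 6 of 10 ISWI genes called higher. Polycomb genes divided, with 10 of 16 called higher, led by Ezh2 and Cbx2 (3.63 and 3.18), and 3 lower, led by Cbx7 and Ezh1 (-3.90 and -2.07). Of 8 SMCHD1-related and KRAB partner genes 6 were called higher, led by Zfp57, which guards methylation at imprints (4.97), and Trim24 (2.11). Of 9 H3 lysine 9 demethylases 4 were called higher, near the share of all genes, led by Kdm3a (1.54) and Kdm4a (1.22), and Jmjd1c was called lower (-0.67).

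Because Uhrf1 moved with the cell division genes, the 250 bases upstream of each RefSeq start were searched for TTTNNCGC on both strands. With any base allowed at N, this is a loose form of the site read by the E2F factors of the cell cycle. A match need not be such a site. Windows were given for 9 of the 10 genes, 15 windows in all. The motif was in 4 of these, from 3 genes, and in 4.3% of the 32851 windows of all genes. Over all windows the median was 6 CpG and 52.4% G or C, while windows of these genes held 2 to 40 CpG. The shares are thus not matched for base composition, and Dnmt3a windows 1 and 2 overlap. The stretches that hold the motif are shown 5′ to 3′ on the strand of the gene, from RefSeq on GRCm38.p6. Capitals mark the match or its reverse complement.
Uhrf1, upstream start, chr17:56303261-56303308, plus strand: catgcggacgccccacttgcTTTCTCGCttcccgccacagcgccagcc
Uhrf1, downstream start, chr17:56304108-56304155, plus strand: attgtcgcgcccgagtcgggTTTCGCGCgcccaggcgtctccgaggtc
Dnmt1, chr9:20952813-20952862, minus strand: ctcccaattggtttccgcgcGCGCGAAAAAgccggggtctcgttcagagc
Suv39h1, chrX:8074398-8074579, minus strand: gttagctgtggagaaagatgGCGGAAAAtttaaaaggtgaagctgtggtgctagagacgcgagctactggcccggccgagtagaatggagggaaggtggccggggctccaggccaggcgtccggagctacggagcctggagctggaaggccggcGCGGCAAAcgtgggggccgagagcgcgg

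The Uhrf1 matches began 56 and 185 bases upstream of their starts. The Dnmt1 stretch, from its window 3, holds a pair of overlapping matches, 219 and 217 bases upstream. Suv39h1 has matches at 198 and 64 bases in its window 2. The other windows of Dnmt1 and Suv39h1, at other starts, held no match. Among these 3 genes the tissue difference was 6.37 for Uhrf1, 1.07 for Dnmt1 and 0.78 for Suv39h1 on the log2 scale. The part of the motif in these differences was not tested. A match is a description of the letters, and no binding was measured.

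**Figure D2:**
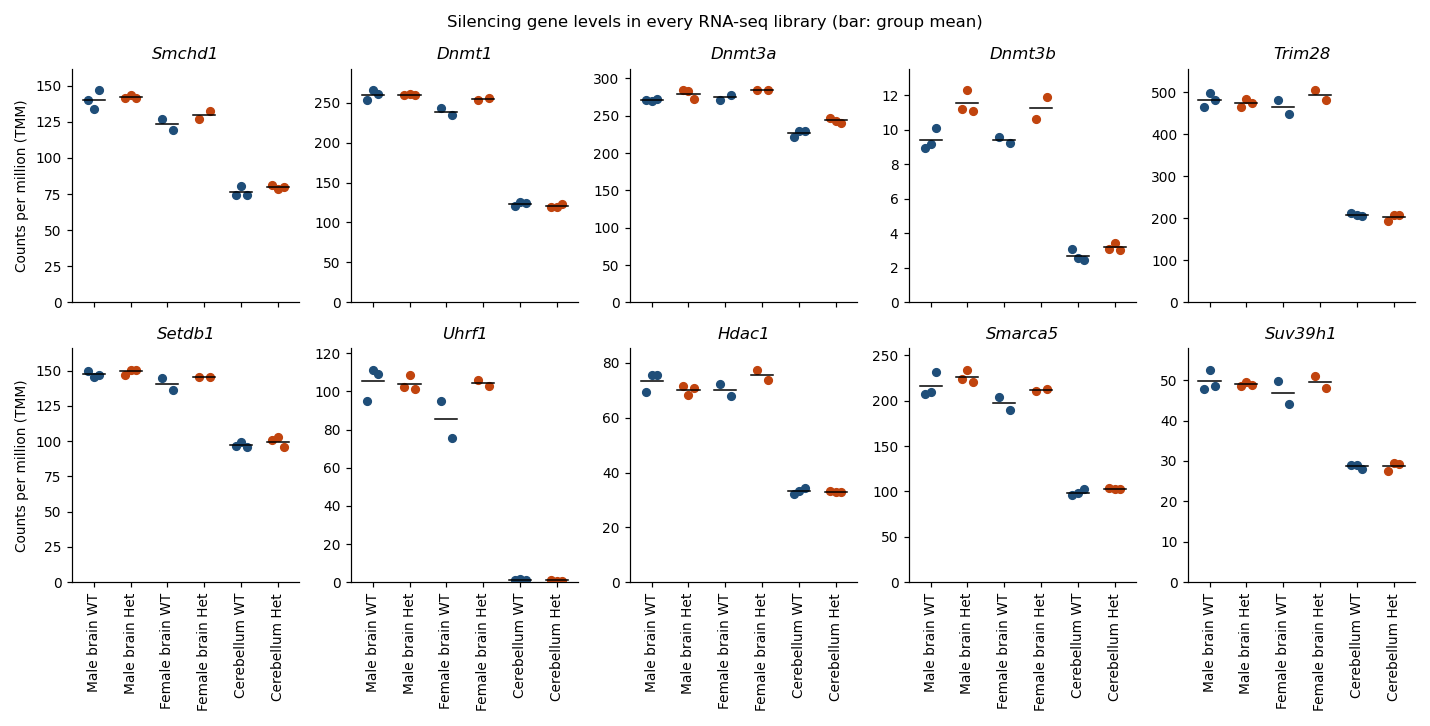
TMM-scaled CPM of each silencing gene in all 16 libraries (blue, WT; orange, Het; bar, group mean), with each axis starting at 0. Brain lies above cerebellum in every panel, and the Het points of Dnmt3b lie above the WT points of the same group except for cerebellum Het replicate 3, at 3.04 CPM beside 3.07 in WT replicate 1.

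The silencing genes did not rise or fall past the limits in any comparison of Het with WT. By edgeR's quasi-likelihood test, 0 of 10 were called in embryonic males, embryonic females or cerebellum, and 0 in the fits of both-sex brain or of all 16 libraries. At an unadjusted p under 0.05 there were 1, 2, 2, 2 and 3 of 10 in these 5 fits, and the DESeq2 Wald test also called 0 in each. By edgeR the largest of these unadjusted p-values ranked 151 of 16848 genes in embryonic males and 975 of 17152 in embryonic females. In cerebellum it ranked 3018 of 15979, in both-sex brain 1632 of 17620 and in all libraries 916 of 17956, so many other genes also had such a p. Of all genes tested, 0.184% were called in embryonic males, 0.111% in embryonic females, 0.832% in cerebellum, 0.346% in both-sex brain and 0.529% in all libraries. The 95% interval of the fold change lay within 0.7 to 1.3 for 9 genes in embryonic males, 8 in embryonic females and 8 in cerebellum, and for 9 with all libraries, where Dnmt3b was the exception with an upper bound of 1.31.

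**Figure D3:**
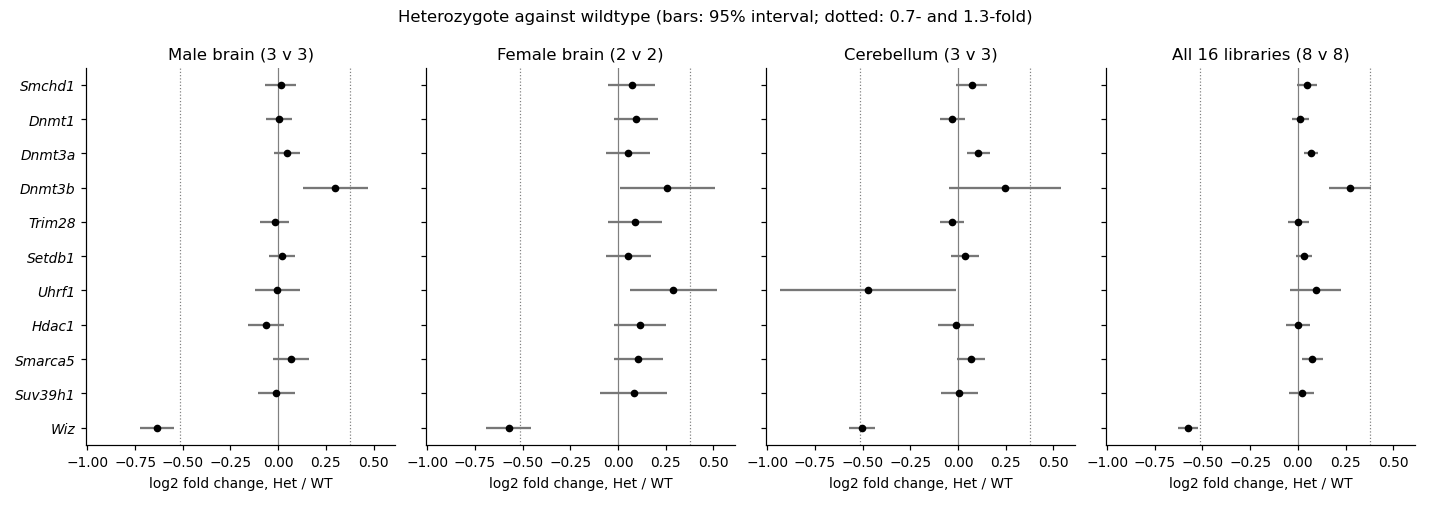
Log2 fold change (Het over WT) of the 10 silencing genes and Wiz, by tissue and sex and over all 16 libraries, with 95% intervals; dotted lines mark 0.7- and 1.3-fold. Wiz lies between -0.63 and -0.50, Dnmt3b between 0.25 and 0.30, and Uhrf1 at -0.47 in cerebellum.

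Dnmt3b (chr2:153649450-153687730 on GRCm38, plus strand) had the highest log2 fold change of the 10 over all libraries. In male brain it read 8.94, 9.15 and 10.1 CPM in WT and 11.2, 12.3 and 11.1 in Het. In female brain it read 9.57 and 9.26 in WT and 10.6 and 11.9 in Het, and in cerebellum 3.07, 2.56 and 2.43 in WT and 3.08, 3.43 and 3.04 in Het. The groups did not overlap in either sex of brain, where 6.18% of genes in males and 18% in females stood apart in that direction. Of the 8 Het libraries, 7 exceeded every WT library of their own tissue and sex, for Dnmt3b and also for Dnmt3a. At least 7 of 8 did so for 1.56% of all 17956 genes. For Setdb1 and Smarca5 6 of 8 did so, a count for which no share over all genes was taken. The exception for Dnmt3b was cerebellum Het replicate 3, just under WT replicate 1.

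The log2 fold change of Dnmt3b was 0.30 ± 0.08 in males (adjusted p = 0.249) and 0.26 ± 0.11 in females (0.775) at the embryonic stage, and 0.25 ± 0.14 in the adult (0.344). None of these passed alone. Over all 16 libraries it was 0.27 ± 0.05 (adjusted p = 0.0123), a 1.21-fold higher level in Het with a 95% interval of 1.12 to 1.31, past the p threshold but short of the 1.3-fold limit. An adjusted p of at most 0.05 was reached by 1.5% of all genes in that fit. Leaving out any 1 library gave 0.25 to 0.30 and an adjusted p of 0.00758 to 0.04. The depth is modest, at 68 to 92 counts per cerebellum library and 158 to 583 per brain library. The difference did not vary detectably between male brain and cerebellum (interaction 0.05 ± 0.15) or between the sexes (-0.04 ± 0.12), with intervals as wide as -0.26 to 0.37.

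The Dnmt3b window upstream of its RefSeq start is shown because Dnmt3b was the only member past the p threshold over all libraries. It covers chr2:153649199-153649448 on GRCm38.p6, plus strand, is 75.2% G or C with 21 CpG, and held no TTTNNCGC. Capitals mark GGGCGG on either strand, the GC box. It was in 32.7% of all windows and in 13 of the 15 windows of these genes, shares that are also not matched for base composition.
Dnmt3b: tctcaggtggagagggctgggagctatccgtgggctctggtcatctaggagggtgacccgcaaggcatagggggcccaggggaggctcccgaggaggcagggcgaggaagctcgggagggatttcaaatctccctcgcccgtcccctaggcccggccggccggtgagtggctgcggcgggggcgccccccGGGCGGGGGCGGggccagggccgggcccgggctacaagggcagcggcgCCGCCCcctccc

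Dnmt3a, the other de novo enzyme, showed a smaller difference. In cerebellum it read 222.0, 229.0 and 229.9 CPM in WT and 247.6, 243.5 and 240.4 in Het, without overlap, as did 11.6% of all genes in that direction. Its log2 fold change was 0.11 ± 0.03 (adjusted p = 0.0412), a 1.08-fold higher level that was far from the 1.3-fold limit, and 5.25% of all genes reached that p. The adjusted p was over 0.05 without WT replicate 1 (0.124), WT replicate 3 (0.114), Het replicate 1 (0.148) or Het replicate 2 (0.086). In brain it was 0.05 ± 0.03 in males and 0.05 ± 0.05 in females, and over all libraries 0.07 ± 0.02 (adjusted p = 0.0676, or 0.0367 without male Het replicate 3).

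**Figure D4:**
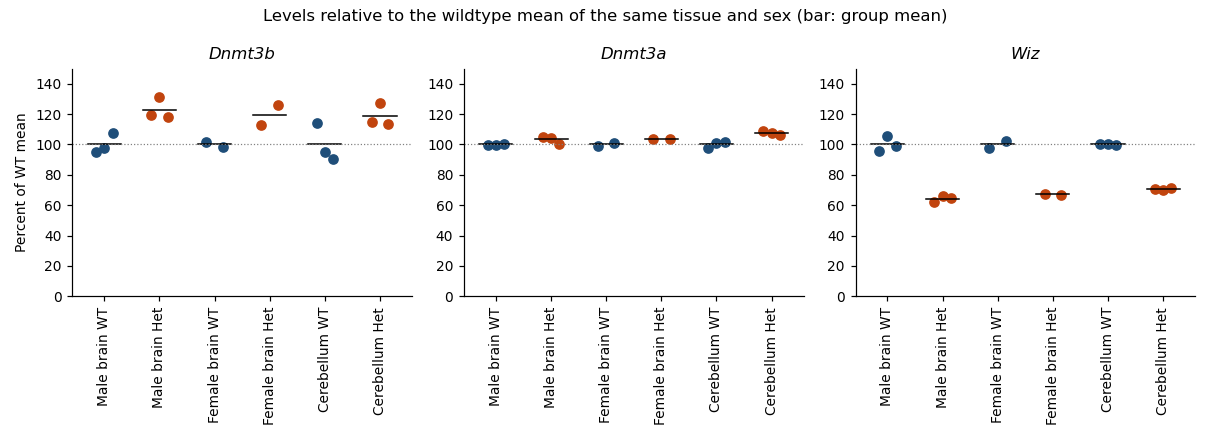
Level of Dnmt3b, Dnmt3a and Wiz in each library as a percent of the WT mean of the same tissue and sex (blue, WT; orange, Het; bar, group mean). Het libraries lie at 113% to 131% for Dnmt3b, 100.4% to 109% for Dnmt3a and 62.0% to 71.2% for Wiz, and WT libraries of Dnmt3b span 90.4% to 114%.

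Uhrf1 was the least settled. In female brain it read 95.2 and 75.6 CPM in WT and 106.1 and 102.8 in Het, so the groups did not overlap, and the low value was WT replicate 2. The log2 fold change was 0.29 ± 0.10 (adjusted p = 0.773). It was called when WT replicate 1 was left out (0.46, adjusted p = 0.00485) and was 0.14 without WT replicate 2 (adjusted p = 1). In male brain it was -0.01 ± 0.05, with 95.2, 111.4 and 109.0 CPM in WT and 102.5, 108.4 and 101.5 in Het.

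In cerebellum Uhrf1 lay the other way at the edge of detection, at 1.05, 1.45 and 1.29 CPM in WT and 1.00, 0.857 and 0.858 in Het, from 23 to 39 counts a library. Every Het library was below every WT library, as for 12.4% of all genes, but the log2 fold change of -0.47 ± 0.22 did not pass (adjusted p = 0.238). The interaction of genotype with sex was 0.30 ± 0.12 (adjusted p = 0.985) and with tissue 0.47 ± 0.24 (adjusted p = 0.537).

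In female brain all 10 genes were above 0 on average in Het, with a median log2 fold change of 0.09, where 50% of all 17152 genes were above 0. For 8 of the 10, both Het libraries exceeded both WT libraries, as did those of 18% of all genes. None passed the test. The proliferation markers lay the same way, with 15 of 15 above 0 (median 0.273, 0 called, 9 at an unadjusted p under 0.05), and their summed level was 1583 and 1277 CPM in WT replicates 1 and 2 and 1768 and 1684 CPM in Het replicates 1 and 2. WT replicate 2 was also the lower female WT library for 9 of the 10 silencing genes. Of the neural progenitor markers 7 of 8 were above 0 (median 0.173). Markers of other cell types lay the opposite way, with 0 of 8 blood markers above 0 (median -0.253, 4 at an unadjusted p under 0.05), 0 of 6 for microglia, 0 of 4 for endothelium, 0 of 3 for astrocytes and 1 of 7 for cerebellar neurons, and 3 of 6 myelin markers were above 0. None of these markers was called. The blood markers summed to 1284 and 1325 CPM in WT replicates 1 and 2 and to 1211 and 1188 CPM in Het replicates 1 and 2. The part of these markers in the values of the silencing genes was not tested.

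Male brain gave no such lean among the 10 silencing genes. Het and WT were within 0.07 on the log2 scale for 9 of the 10, and 6 were above 0 (median 0.009). The narrowest intervals were those of Dnmt1, at 0.956 to 1.05-fold, and of Setdb1, Dnmt3a and Trim28. The proliferation markers summed to 1648 to 1866 CPM in WT and 1737 to 1868 in Het, with 9 of 15 above 0. Blood markers leaned higher (7 of 8 above 0, median 0.097, 0 called). Above 0 were 5 of 8 neural progenitor, 3 of 6 microglia, 2 of 4 endothelial, 1 of 3 astrocyte, 4 of 6 myelin and 4 of 6 cerebellar neuron markers. The part of these markers in the values of the 10 genes was not tested.

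In cerebellum Smchd1 read 74.5, 80.3 and 74.5 CPM in WT and 81.4, 78.7 and 80.1 in Het (0.07 ± 0.04, adjusted p = 0.32). Smarca5 read 95.7, 98.1 and 102.3 against 103.9, 102.8 and 103.0 (0.07 ± 0.03, adjusted p = 0.287). Every Het library was above every WT library for Smarca5, as for 11.6% of all genes, but not for Smchd1, and neither passed. Dnmt1, Trim28, Setdb1, Hdac1 and Suv39h1 lay within 0.04 of 0. Blood markers differed between the same libraries, with 4 of 8 called higher in Het (Alas2, Hba-a2, Hbb-bs and Hba-a1, log2 fold change 0.78 to 1.08) and a summed level of 160 to 249 CPM in WT and 290.5 to 528 in Het. The embryonic globins Hba-x, Hbb-bh1 and Hbb-y were at 0 there. Myelin markers lay lower (5 of 6 below 0, median -0.10), as did neural progenitor markers (6 of 7 below 0, median -0.23). By edgeR, 3 myelin and 4 progenitor markers reached an adjusted p of at most 0.05, as did 5.25% of all genes, but none was called. Above 0 were 5 of 12 proliferation, 2 of 6 microglia, 2 of 4 astrocyte, 2 of 4 endothelial and 4 of 8 cerebellar neuron markers. Of these, 1 astrocyte and 1 endothelial marker reached that p. The part of these cell types in the differences of Dnmt3a and Dnmt3b was not tested.

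Over all 16 libraries the log2 fold changes of the 10 were all above 0, as were those of 49.3% of all genes, with a median of 0.04. Smarca5 stood at 0.08 ± 0.03 (adjusted p = 0.15, or 0.0347 without male WT replicate 3) and Smchd1 at 0.05 ± 0.02 (0.341). Setdb1, Suv39h1, Dnmt1, Trim28 and Hdac1 lay between 0.00 and 0.03. Trim28 and Hdac1 fell below 0 when single libraries were left out, as did Suv39h1. In the same fit 15 of 15 proliferation markers were above 0 (median 0.104), as were 7 of 8 blood and 6 of 8 neural progenitor markers, while 0 of 6 microglia, 0 of 4 astrocyte and 1 of 6 myelin markers were. None of these was called, and their part in the values of the 10 genes was not tested.

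Few genes of the 7 wider lists, which hold erasers as well as silencers, were called with genotype, though many leaned upward in cerebellum. Those above 0 were 13 of 15 DNA methylation, 11 of 16 H3 lysine 9 methylation and 6 of 9 demethylase genes, beside 48.7% of all genes. So were 12 of 18 deacetylase complex, 7 of 10 ISWI, 11 of 16 Polycomb and 7 of 8 SMCHD1-related and KRAB partner genes. In the same order, 1, 1, 1, 1, 3, 2 and 2 reached an adjusted p of at most 0.05, beside 5.25% of all genes. Zfp57, the imprint-guarding partner of Trim28, was the only gene of these 7 lists called in a Het comparison. In cerebellum, where 0.832% of all genes were called and its WT mean was 8.29 CPM, its log2 fold change was 0.41 ± 0.09 (adjusted p = 0.0158). In male brain, with 260.4 CPM in WT, it was 0.01 ± 0.04. Lrif1, which binds Smchd1, was lower in Het over all libraries, by -0.23 ± 0.04 (adjusted p = 0.00553), short of the 0.7-fold limit. Tet1, an eraser of DNA methylation, was 0.24 ± 0.05 in cerebellum (adjusted p = 0.0122) and Smarca1 0.25 ± 0.06 (0.0287), both short of the limit. Ehmt1 was 0.00 ± 0.02 and Ehmt2 -0.04 ± 0.02 over all libraries, with adjusted p of 1 and 0.428.

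Between the sexes of embryonic brain, 0 of 10 genes were called by edgeR, where 1.46% of all genes were, and DESeq2 called 0. By edgeR 4 had an unadjusted p under 0.05, but the largest, 0.0457 for Setdb1, ranked 4742 of 17620 genes by p. Smchd1 was lower in females, by -0.16 ± 0.03 on the log2 scale (adjusted p = 0.0103), a 0.895-fold level. It read 133.9 to 147.1 CPM over the 6 male libraries and 119.4 to 132.4 over the 4 female ones, without overlap, as did 4.32% of all genes in that direction, and 11.2% of all genes reached an adjusted p of at most 0.05. X-linked Suv39h1 was -0.03 ± 0.04. The proliferation markers leaned the same way as Smchd1, with 15 of 15 lower in females and a median of -0.16, and blood markers the opposite way, with 4 of 8 called higher. The labels give no batch of preparation or sequencing, so no value within a batch can be given.

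Some counts can be shared with other loci. The intronless copy of Hdac1, Gm10093, read 3.0 to 4.39 CPM in cerebellum and 7.09 to 9.67 in brain beside 32.1 to 77.6 CPM for Hdac1, and the Smarca5 copy Smarca5-ps read at most 1.18 CPM. Gm14820, antisense to Suv39h1, overlaps 14.6% of the Suv39h1 exon bases and read at most 0.410 CPM. How reads were assigned by strand is not given in the sources used here.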

How the data were processed

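Libraries of polyadenylated RNA were made from E13.5 whole brain and adult cerebellum, and 16 count tables were analysed. Per the labels and the study's methods, the authors aligned reads to mm10 with TopHat2 2.0.11 and counted them per Ensembl gene with HTSeq 0.6.1, and the deposited values are raw counts with no normalization. Strand and overlap settings are not given in the sources used here. Symbols, positions and lengths came from the GENCODE annotation of GRCm38, which held 40340 of the 41388 identifiers; the other 1048 took at most 0.171% of a library and stayed in the fits. No row named anything other than a gene.

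Counts were tested with edgeR 4.0.16 in R 4.3.3 (quasi-likelihood test, TMM scaling, filterByExpr with a minimum count of 10, Benjamini-Hochberg adjustment over all genes tested). Called genes had an adjusted p no greater than 0.05 together with a fold under 0.7 or over 1.3, the limits of the study. Interactions used the p alone. Fits held genotype, with sex or the 3 combinations of tissue and sex as covariates where groups were joined. SE is the log2 fold change divided by the root of its F, and intervals are 95%. DESeq2 1.42.0 was the other test. CPM per kilobase used the longest transcript.

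The members and gene lists were chosen with earlier results of these data known. Every member and Wiz is named throughout. From each list, up to 2 genes called higher and 2 called lower with the largest log2 fold change are named, with genes called in a Het comparison. Ehmt1, Ehmt2, Lrif1, Tet1 and Smarca1 in the Het comparisons were named after their values were seen. Likeness was the Euclidean distance of centred log2 CPM over 16 libraries among genes with a mean of at least 1 CPM. The quasi-likelihood test was tested on simulated data with known changes. Of the 1.5-fold changes, 71% were called in embryonic males, 54% in embryonic females, 67% in cerebellum and 79% over all libraries. False calls numbered 7, 13, 5 and 4 in the same order. Labels call replicates separate samples; p-values measure the spread between these samples.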

Additional observations from a re-analysis of the deposited data

Results flagged for a closer look

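Uhrf1 was marked because its Het libraries lay in opposite directions in female brain and in male cerebellum, which differ in sex and age as well as tissue. Both female brain Het libraries lay above both WT libraries (log2 fold change 0.29), while all 3 cerebellum Het libraries lay below all 3 WT libraries (-0.47, at about 1 CPM). Neither value passed the test, and the difference between female brain and cerebellum was not tested. In male brain the log2 fold change was -0.01 ± 0.05, and in female brain it was 0.14 without WT replicate 2.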

How the results depend on the processing

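Each fit was repeated with DESeq2 size factors, total counts, the DESeq2 Wald test, no filter on low counts, no fold limit, a replicate block and without each library; the strata also in 1 fit over 16 samples, and the tissue comparison in Het libraries and in 12 libraries. The count of the 10 genes called moved from 0 to 1 with no fold limit in cerebellum (Dnmt3a), all libraries (Dnmt3b) and female against male brain (Smchd1), and ranged from 0 to 1 in female brain without single libraries (Uhrf1, without WT replicate 1). Tissue calls were 9, or 10 with total counts or no fold limit (Dnmt3a). Genotype by tissue and by sex gave none throughout.

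Same-numbered libraries did not vary together (r of -0.179 to -0.004 over 8 pairs), so the numbers were not taken as pairs. With a replicate block, Dnmt3b over all libraries was 0.27 (adjusted p = 0.0597; at most 0.05 in the other 20 of 21 settings), Dnmt3a in cerebellum was 0.11 (0.0737), Smchd1 between the sexes was -0.144 (0.0789; at most 0.05 in its other settings) and Wiz in female brain -0.57 (0.056). The count of all genes called with the block was 3 in female brain (19 without), 50 in all libraries (95), 60 between sexes (258) and 13 for genotype by tissue (45).

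Counts of all genes called also moved elsewhere. With no low-count filter they were 175 in male brain (31 as reported), 211 in cerebellum (133), 101 in both-sex brain (61), 416 for genotype by tissue and 1 for genotype by sex (0). With the Wald test they were 32 in female brain, 79 in cerebellum, 141 between sexes, 116 for genotype by tissue and 1 for genotype by sex. In 1 fit over 16 samples they were 54 in female brain and 66 in cerebellum. With no fold limit they were 839 in cerebellum, 270 in all libraries and 1974 between sexes. Leaving out single libraries gave 20 to 117 in male brain, 0 to 261 in female brain, 70 to 153 in cerebellum, 62 to 123 in all libraries, 156 to 318 between sexes, 14 to 103 for genotype by tissue and 0 to 13 for genotype by sex. The cause was not tested.

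Values near 0 changed sign when single libraries were left out. In male brain the log2 fold change ranged from -0.015 to 0.048 for Smchd1, -0.015 to 0.019 for Dnmt1, -0.045 to 0.007 for Trim28, -0.078 to 0.033 for Uhrf1 and -0.035 to 0.027 for Suv39h1. In female brain it ranged from -0.003 to 0.17 for Suv39h1, and in cerebellum from -0.047 to 0.001 for Trim28, -0.04 to 0.017 for Hdac1 and -0.009 to 0.034 for Suv39h1. In both-sex brain it ranged from -0.001 to 0.046 for Trim28, -0.02 to 0.035 for Hdac1 and -0.008 to 0.053 for Suv39h1, and in all libraries from -0.015 to 0.016, -0.02 to 0.018 and -0.005 to 0.036. Between the sexes it ranged from -0.047 to 0.02 for Dnmt3b, -0.022 to 0.035 for Trim28, -0.008 to 0.061 for Hdac1 and -0.055 to 0.014 for Suv39h1. The Dnmt3b interaction ranged from -0.051 to 0.124 with tissue and from -0.117 to 0.035 with sex. Depth limits Uhrf1 and Dnmt3b in cerebellum, at 23 to 39 and 68 to 92 counts.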
